A study of Danio rerio with 34 samples.

Results

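Fibronectin and a small set of other genes for secreted matrix proteins were followed in adult zebrafish testis after exposure to PCB126, together with tcf23, a gene for a basic helix-loop-helix (bHLH) protein. The set held every gene found under the symbols fn1, itgbl1, ccdc80, htra3 and emilin2, whatever the paralogue letter. It came to 8 matrix genes, and tcf23 made 9, of 35117 gene identifiers counted and 24053 tested. All 9 passed the filter on low counts. The genes had been chosen because they moved with PCB126 in these same libraries. Their differences between groups are therefore given as a description, without a test.

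PCB126 is a polychlorinated biphenyl with dioxin-like action, a ligand of the aryl hydrocarbon receptor. Adult Danio rerio received PCB126 at 3 nM or 10 nM, or DMSO as the control, for 24 hours and then spent 7 days in clean water. Testis RNA gave 6 libraries for each of the 3 groups. The series design calls the samples biological replicates, and the labels used here give no strain and do not say whether fish were pooled. The libraries held 16243660 to 29849891 counts in DMSO testes, 21799971 to 29079147 at 3 nM and 18592808 to 26750272 at 10 nM.

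Fibronectin is a secreted dimeric glycoprotein that cells assemble into fibrils through integrins. The fibrils bind collagens, proteoglycans and growth factors. In the testis, matrix surrounds the spermatogenic compartment and fills the interstitium, where fibroblasts, peritubular cells and Leydig cells lie. The symbols are those of the table used to name the identifiers. That table calls both fibronectin genes FN1 and both HtrA serine peptidase genes HTRA3. It does not say which paralogue letter belongs to which, so each is given with its identifier. A symbol in capitals is that of the human counterpart.

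Levels are CPM, counts relative to the library total after scaling for library composition. They are compared between groups for one gene, never between genes, because gene length was not taken into account. In whole tissue, a lower level from fewer cells of a type and one from less RNA per cell cannot be told apart.

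On the first principal component of all tested genes, with 39.7% of the variance, 5 exposed libraries stood apart from the other 13. They were replicates 4 and 6 of the 3 nM group and replicates 1, 5 and 6 of the 10 nM group, with scores of 48.4 to 138 against -58.4 to -3.82 in the others. Their share of mitochondrial counts was 3.80% to 7.22%, against 1.68% to 3.56% in the others. Log2 fold changes of the 9 genes against DMSO are given with and without these 5 libraries. Of the markers of germ, Sertoli and Leydig cells, none was at 0 in all libraries. The same held for the liver and intestine markers, so presence alone does not tell the tissue. Summed germ cell markers lay between 8823 and 9854 CPM in DMSO testes, 8366 and 10831 CPM at 3 nM, and 7071 and 9729 CPM at 10 nM.

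The members moved in opposite directions. ITGBL1 and tcf23 were lower in every exposed testis than in every DMSO testis, at both concentrations. Of all tested genes, 3.2% were lower without overlap at 10 nM and 0.707% at 3 nM. The share lower at both together was not computed. One fibronectin gene was lowest at 3 nM, and the other was highest at 10 nM in the 3 libraries that stood apart. EMILIN2 and one HTRA3 gene were also highest in those 3 libraries. The libraries apart at 3 nM did not have such levels. There FN1 ENSDARG00000019815 averaged 9.84 CPM in the libraries apart and 14.0 CPM in the others, and EMILIN2 3.80 and 5.42 CPM. HTRA3 ENSDARG00000010925 averaged 0.782 and 0.541 CPM, beside 0.761 CPM in DMSO testes. In the edgeR fit, 10.8% of all tested genes had an adjusted p below 0.05 for 10 nM against DMSO, with 7.4% higher and 3.44% lower. Of the 8 matrix genes, 4 were past that threshold and higher at 10 nM, and 1 was past it and lower. At 3 nM, 0.208% of all tested genes were past it against DMSO, 0.129% higher and 0.079% lower, and so were 0 matrix genes in the higher direction and 2 in the lower. Because the genes were picked on these contrasts, nothing is read from either count. Without the 5 libraries apart, 1.9% of all genes were past the threshold at 10 nM (1.02% higher, 0.883% lower) and 0.264% at 3 nM (0.167% higher, 0.0977% lower). The matrix genes past it in that fit were then 0 higher and 1 lower at 10 nM, and 0 higher and 1 lower at 3 nM. That fit holds only 3 libraries at 10 nM and 4 at 3 nM, so a call can be lost without a smaller difference. For ccdc80 the log2 fold change at 10 nM was 0.76 with all libraries and 0.78 in that fit, where it was not past the threshold.

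**Figure D1:**
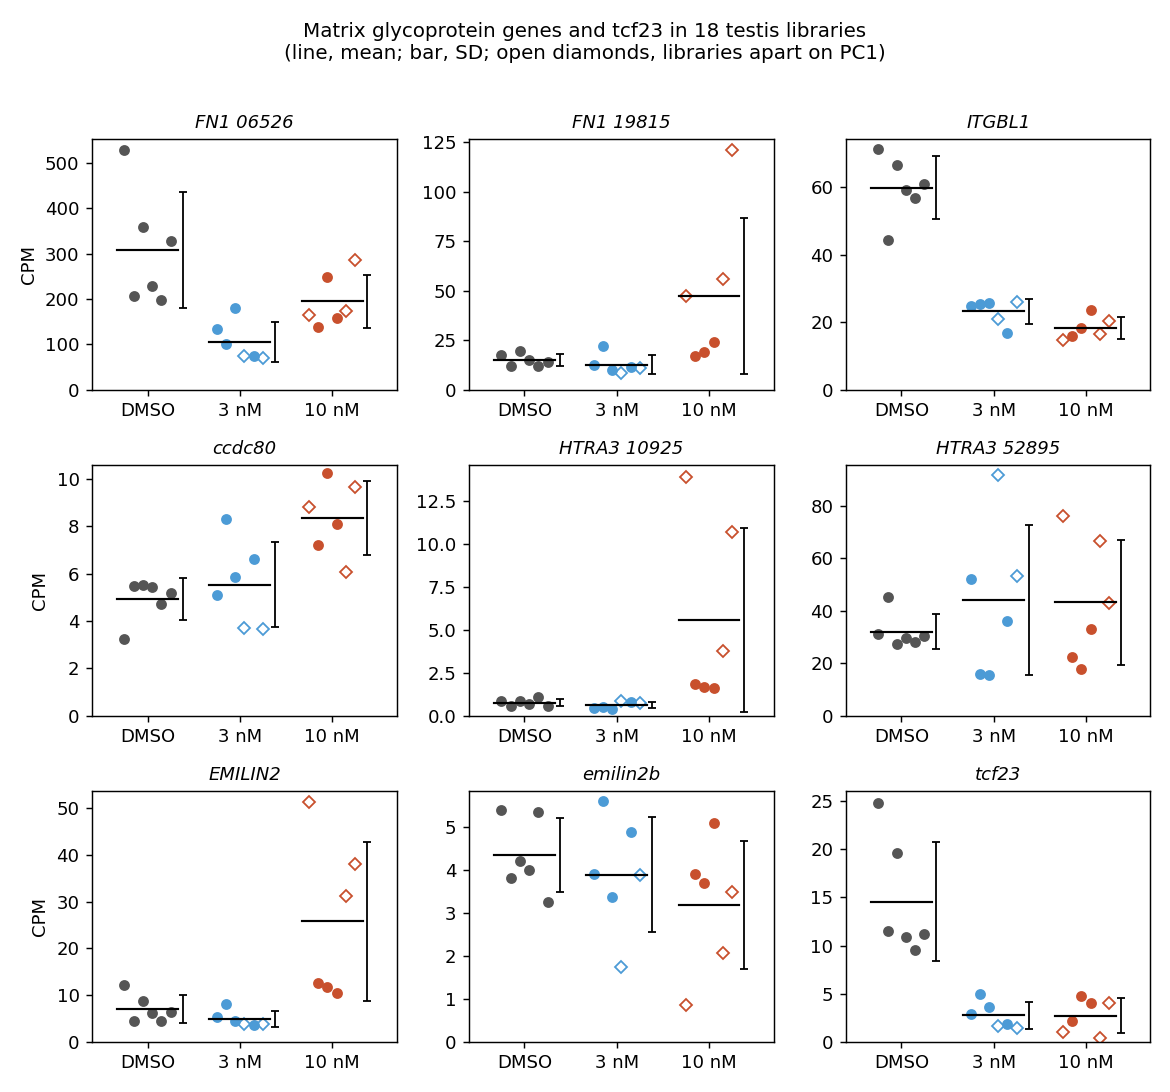
Level (CPM, linear axis from 0) of the 8 matrix genes and tcf23 in each of 18 testis libraries, by PCB126 concentration. Each point is a library, the line is the mean of 6 and the bar its SD; open diamonds are the 5 libraries apart, and the digits after FN1 and HTRA3 end the identifier. ITGBL1 and tcf23 are below the DMSO libraries in all 12 exposed libraries, whereas high values of FN1 19815, HTRA3 10925 and EMILIN2 are open diamonds at 10 nM.

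The fibronectin gene FN1 ENSDARG00000006526 had its lowest values at 3 nM. In DMSO testes the lowest, median and highest levels were 197, 278 and 530 CPM. They were 70.0, 87.6 and 181 CPM at 3 nM, and 138, 169 and 287 CPM at 10 nM. All 6 libraries at 3 nM lay below all 6 DMSO libraries. At 10 nM the range overlapped that of DMSO, and 4 of the 6 libraries lay below the lowest DMSO library. The log2 fold change against DMSO was -1.55 ± 0.29 (SE) at 3 nM and -0.66 ± 0.28 at 10 nM. Leaving out the libraries apart, it was -1.33 ± 0.33 and -0.78 ± 0.36. In 18 fits that each left out 1 library, the 3 nM value ranged from -1.77 to -1.32. It was not past the threshold without DMSO replicate 1, 3 or 6, or without 3 nM replicate 2, 4, 5 or 6. DMSO replicate 1 had the highest level of this gene.

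The other fibronectin gene, FN1 ENSDARG00000019815, had a different pattern. Its lowest, median and highest levels were 11.8, 14.6 and 19.6 CPM in DMSO testes, 8.51, 11.3 and 21.8 CPM at 3 nM, and 17.2, 35.7 and 121 CPM at 10 nM. The 3 highest values were 121, 56.2 and 47.3 CPM, in 10 nM replicates 6, 5 and 1, which are the libraries apart. The other 3 libraries at 10 nM averaged 20.1 ± 3.59 CPM (SD, n = 3), against 15.1 ± 3.11 CPM in DMSO testes (SD, n = 6), and their range overlapped that of DMSO. Between 10 nM and DMSO the log2 fold change was 1.66 ± 0.39. It was 0.41 ± 0.22 when the libraries apart were left out. With 1 library left out it ranged from 1.12 to 1.83. At 3 nM the log2 fold change was -0.25 ± 0.39 in all libraries and -0.11 ± 0.21 without those apart. The sources used here do not give how reads matching both fibronectin genes were counted.

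ITGBL1 (ENSDARG00000040985) encodes a secreted protein with cysteine-rich EGF-like repeats like those in the stalk of integrin beta chains, without the integrin's membrane anchor. The gene's lowest, median and highest levels were 44.4, 60.0 and 71.4 CPM in DMSO testes, 16.7, 25.2 and 25.9 CPM at 3 nM, and 14.7, 17.3 and 23.6 CPM at 10 nM. Every exposed library lay below every DMSO library, with the libraries apart at 20.9 and 25.9 CPM at 3 nM and at 14.7, 16.5 and 20.3 CPM at 10 nM. The log2 fold change was -1.36 ± 0.15 at 3 nM and -1.72 ± 0.15 at 10 nM. Leaving out the libraries apart, it was -1.37 ± 0.16 and -1.65 ± 0.18. With 1 library left out the value ranged from -1.44 to -1.28 at 3 nM and from -1.82 to -1.66 at 10 nM. Between 10 nM and 3 nM, which overlapped, it was -0.35 ± 0.14.

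The gene ccdc80 (ENSDARG00000000002) encodes a secreted matrix-associated protein that in mouse has been studied in fat cell differentiation. Its lowest, median and highest levels were 3.23, 5.30 and 5.5 CPM in DMSO testes, 3.67, 5.48 and 8.29 CPM at 3 nM, and 6.07, 8.46 and 10.2 CPM at 10 nM. All 6 libraries at 10 nM lay above all 6 DMSO libraries, whereas the 3 nM libraries overlapped both. At 10 nM the libraries apart, at 6.07, 8.81 and 9.65 CPM, were mixed among the other 3, at 7.21, 8.11 and 10.2 CPM. For 10 nM the log2 fold change came to 0.76 ± 0.21 in all libraries and 0.78 ± 0.19 in those left without the libraries apart. Over the fits without 1 library it ranged from 0.67 to 0.83, and it was not past the threshold without DMSO replicate 1, 2, 4, 5 or 6, or without 10 nM replicate 1 or 6. At 3 nM the libraries apart held the lowest levels of the group, 3.67 and 3.68 CPM. The log2 fold change there was 0.17 ± 0.21 in all libraries and 0.39 ± 0.18 without those apart.

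EMILIN2 (ENSDARG00000061196) encodes a member of the elastin microfibril interfacer family, glycoproteins found at elastic fibres and other matrix. The gene's lowest, median and highest levels were 4.32, 6.21 and 12.1 CPM in DMSO testes, 3.68, 4.16 and 8.16 CPM at 3 nM, and 10.3, 21.8 and 51.3 CPM at 10 nM. The libraries apart at 10 nM averaged 40.2 ± 10.2 CPM, and the other 3 averaged 11.5 ± 1.08 CPM (SD, n = 3 each), with 1 DMSO library, at 12.1 CPM, inside their range. EMILIN2 had a log2 fold change of 1.88 ± 0.40 at 10 nM in all libraries and of 0.70 ± 0.31 without those apart. With 1 library left out it stayed between 1.55 and 2.11. At 3 nM it was -0.52 ± 0.39 in all libraries and -0.37 ± 0.29 without those apart.

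Its paralogue emilin2b (ENSDARG00000102178) had overlapping groups. The lowest, median and highest levels were 3.26, 4.1 and 5.38 CPM in DMSO testes, 1.72, 3.88 and 5.59 CPM at 3 nM, and 0.855, 3.59 and 5.08 CPM at 10 nM. The lowest value at each concentration was in a library apart. The log2 fold change was -0.16 ± 0.33 at 3 nM and -0.44 ± 0.33 at 10 nM. Leaving out the libraries apart, it was 0.03 ± 0.20 and -0.05 ± 0.22.

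HTRA3 encodes a secreted serine protease that cleaves matrix proteins and, in mouse, binds growth factors of the TGF-beta family. The gene HTRA3 ENSDARG00000010925 had few counts, with 14 to 32 counts per DMSO library, 11 to 21 at 3 nM and 42 to 260 at 10 nM. Its lowest, median and highest levels were 0.548, 0.751 and 1.1 CPM in DMSO testes, 0.370, 0.628 and 0.823 CPM at 3 nM, and 1.58, 2.80 and 13.9 CPM at 10 nM. All 6 libraries at 10 nM lay above all DMSO and all 3 nM libraries. The libraries apart at 10 nM were the highest, at 13.9, 10.7 and 3.74 CPM, and the other 3 lay between 1.58 and 1.86 CPM. At 10 nM the log2 fold change was 2.86 ± 0.52, ranging from 2.34 to 3.04 with 1 library left out. It was 1.14 ± 0.29 without the libraries apart. At 3 nM the log2 fold change was -0.29 ± 0.52 in all libraries and -0.50 ± 0.29 without those apart.

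The second gene, HTRA3 ENSDARG00000052895, had SDs of 28.6 CPM at 3 nM and 23.6 CPM at 10 nM, against 6.59 CPM in DMSO testes. The gene's lowest, median and highest levels were 27.5, 30.0 and 45.1 CPM in DMSO testes, 15.3, 43.9 and 91.6 CPM at 3 nM, and 17.8, 38 and 76.0 CPM at 10 nM. At each concentration the libraries apart held the highest values and the lowest values lay below every DMSO library. The libraries apart averaged 61.8 ± 17.0 CPM at 10 nM (SD, n = 3), against 24.4 ± 7.80 CPM in the other 3. The log2 fold change at 10 nM was 0.43 ± 0.40 in all libraries and -0.40 ± 0.36 without the libraries apart. At 3 nM it was 0.46 ± 0.40 in all libraries and -0.11 ± 0.32 without them.

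The gene tcf23 (ENSDARG00000087381) encodes a bHLH protein that in mouse inhibits other bHLH factors. Its lowest, median and highest levels were 9.5, 11.3 and 24.8 CPM in DMSO testes, 1.44, 2.32 and 4.98 CPM at 3 nM, and 0.387, 3.08 and 4.71 CPM at 10 nM. All 12 exposed libraries lay below all 6 DMSO libraries. The lowest values at 10 nM, 0.387 and 0.962 CPM, were in libraries apart. The log2 fold change was -2.41 ± 0.47 at both concentrations, and -2.13 ± 0.36 at 3 nM and -2.01 ± 0.40 at 10 nM without the libraries apart. Between 10 nM and 3 nM it was 0.00 ± 0.46. With 1 library left out, the value ranged from -2.65 to -2.19 at 10 nM and from -2.67 to -2.19 at 3 nM. At 3 nM it was not past the threshold without any 1 of the 6 DMSO libraries, without 3 nM replicate 1, 3, 4, 5 or 6, or without 10 nM replicate 2.

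**Figure D2:**
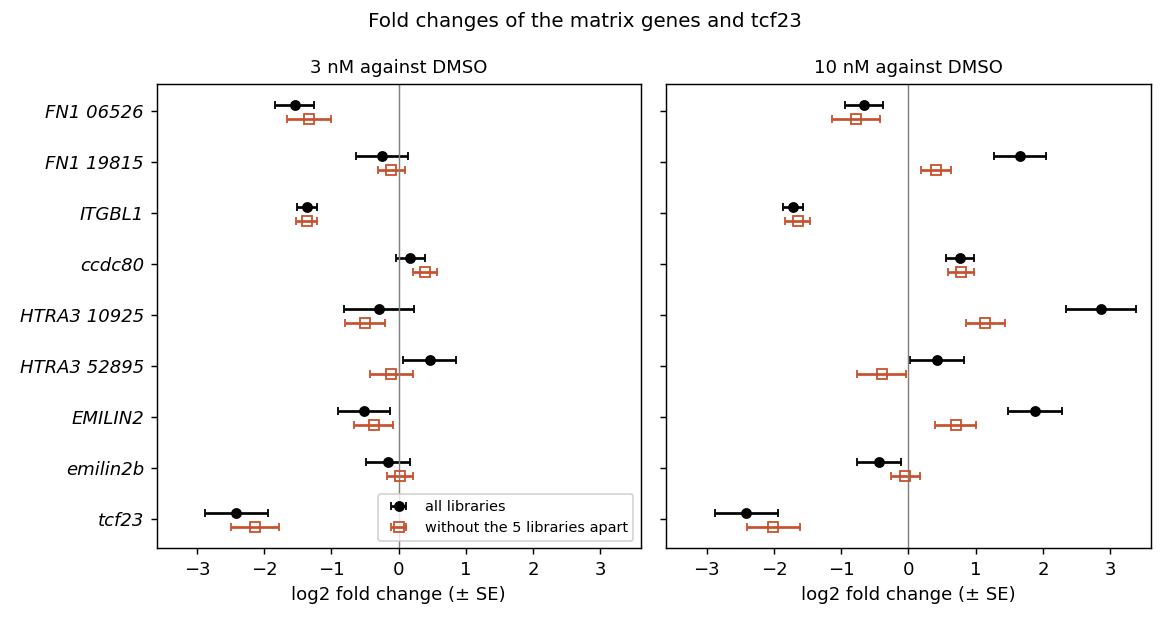
Log2 fold change ± SE against DMSO of the 8 matrix genes and tcf23 at 3 nM (left) and 10 nM (right) PCB126. Filled circles are all 18 libraries and open squares are the 13 left without the libraries apart: ITGBL1 changes little between them (-1.72 and -1.65 at 10 nM), and HTRA3 10925 is 2.86 with all libraries and 1.14 without those apart.

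Over all tested genes, 2.93% were higher and 3.2% lower at 10 nM than in DMSO without any overlap between the groups' libraries. At 3 nM these shares were 1.02% and 0.707%. Of the 8 matrix genes, ccdc80 and HTRA3 ENSDARG00000010925 were higher at 10 nM without overlap and ITGBL1 was lower. At 3 nM, 0 matrix genes were higher without overlap, and FN1 ENSDARG00000006526 and ITGBL1 were lower. Beside them, tcf23 was lower without overlap at both concentrations. All of these rest on the contrasts that chose the genes, and nothing is read from them.

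Both exposed groups were also set against each other, a comparison that shares its libraries with those above. In it, 0.129% of all tested genes were past the threshold, 0.121% higher and 0.00831% lower at 10 nM. The matrix genes past it were EMILIN2, with a log2 fold change of 2.40 ± 0.40, and HTRA3 ENSDARG00000010925, with 3.16 ± 0.53, both higher at 10 nM. In both genes every 10 nM library lay above every 3 nM library, and 0.54% of all tested genes were without overlap in that direction. Because the genes were chosen for moving with PCB126 in these libraries, nothing is read from these calls or from the lack of overlap. Without the libraries apart the values were 1.07 ± 0.34 for EMILIN2 and 1.64 ± 0.33 for HTRA3, and neither was past the threshold. In fits without 1 library, EMILIN2 ranged from 2.08 to 2.59 and HTRA3 from 2.65 to 3.34. Both were not past the threshold without 3 nM replicate 1, 3, 4, 5 or 6 or without 10 nM replicate 1, 5 or 6, and HTRA3 also without 3 nM replicate 2. FN1 ENSDARG00000019815 had 1.91 ± 0.40 and FN1 ENSDARG00000006526 had 0.89 ± 0.28, neither past the threshold. The first was past it without 10 nM replicate 2, 3 or 4, with values of 1.37 to 2.12 over the 18 fits.

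Each member was next compared with every other, library by library, as the mean absolute difference between log2 CPM values set to their own DMSO mean, over all 18 libraries. The closest pair was FN1 ENSDARG00000019815 with EMILIN2, at 0.33. HTRA3 ENSDARG00000010925 and EMILIN2 differed by 0.55. FN1 ENSDARG00000006526 lay nearest to ITGBL1, at 0.60, and both fibronectin genes differed from each other by 1.16. The libraries share the split into 5 apart and 13 others, so that these distances are a description.

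**Figure D3:**
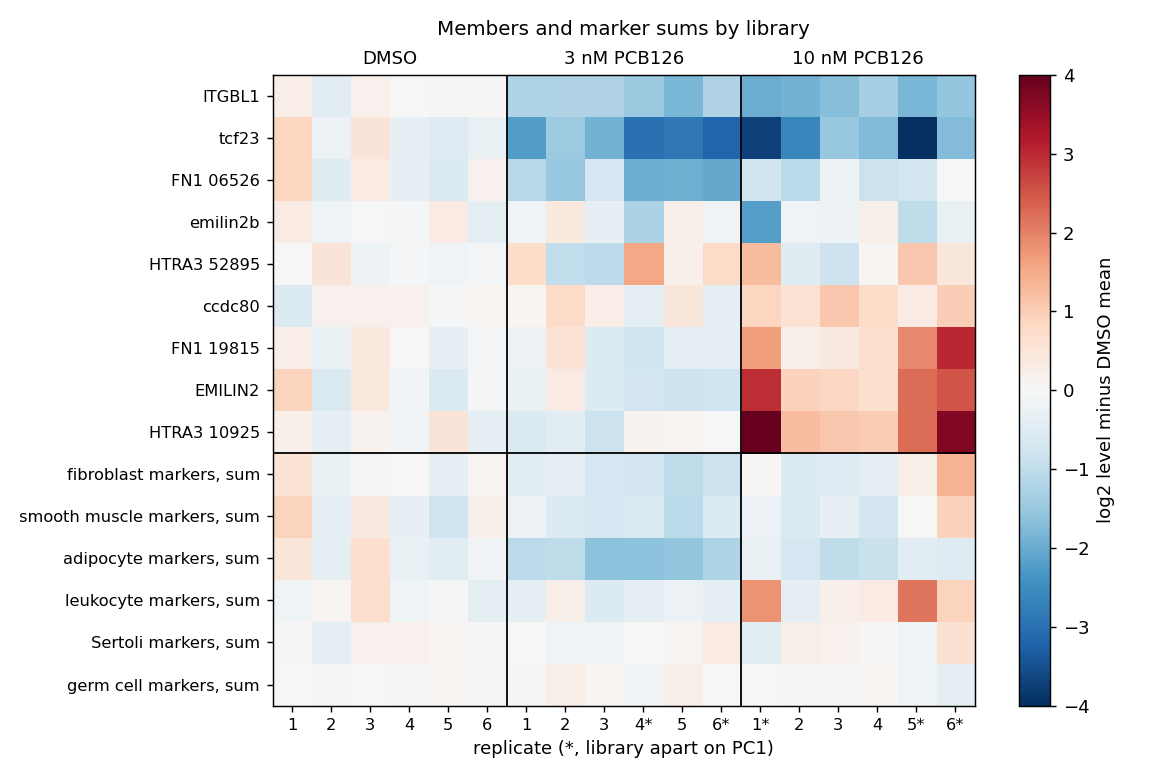
Log2 level minus the mean of the 6 DMSO libraries, by library (columns, grouped by concentration; * marks libraries apart), for the 9 genes (above the line) and for summed CPM of marker lists (below it). Colours stop at 4 in either direction. FN1 19815, EMILIN2 and HTRA3 10925 are reddest in 10 nM replicates 1, 5 and 6, whereas ITGBL1 and tcf23 are blue in all 12 exposed libraries.

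By the same measure over the 19009 genes that have a symbol and average 1 CPM or more, the gene most like FN1 ENSDARG00000006526 was cd248a, at 0.31, followed by SPNS3 at 0.32 and INHBA, which encodes an activin subunit, at 0.37. FN1 ENSDARG00000019815 was closest to PDGFRA, at 0.19, a receptor for platelet-derived growth factor that is among the fibroblast markers used here. ITGBL1 was closest to arhgap28, at 0.28, and SCUBE1, at 0.35. EMILIN2 was closest to si:ch211-106h4.12, at 0.30, and marcksl1a, at 0.32. HTRA3 ENSDARG00000010925 was closest to THBS1, at 0.44, and TIMP2, at 0.44. For tcf23 the nearest genes were LCAT, at 0.65, and WBP1L, at 0.68. Without the libraries apart, SPNS3, INHBA, PDGFRA, arhgap28 and marcksl1a remained among the nearest 3 of their members, whereas none of the first 3 genes did for ccdc80, either HTRA3 gene, emilin2b or tcf23.

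The 15 fibroblast markers include collagens, PDGFRA, PDGFRB and DCN. Their summed level was 468 to 899 CPM in DMSO testes, 299 to 465 CPM at 3 nM and 417 to 1617 CPM at 10 nM. Within the 10 nM group it was 634, 723 and 1617 CPM in replicates 1, 5 and 6, the libraries apart, and 417 to 475 CPM in the other 3. Only replicate 6 lay above the DMSO range. No fibroblast marker was at 0 in all libraries. In 10 nM against DMSO, 2 of the 15 were past the threshold and higher and 1 was lower, 20% beside 10.8% of all genes. The median log2 fold change was 0.64 against 0.06 over all genes. With the libraries apart left out, 0 were higher and 1 lower, beside 1.02% and 0.883% of all genes, with a median of -0.15. At 3 nM 0 were past it, with a median of -0.66. The 17 leukocyte markers summed to 604 to 1452 CPM in the 10 nM libraries apart and 257 to 410 CPM in the other 3, against 251 to 529 CPM in DMSO testes. Among them 1 of 3 genes with the symbol MPEG1, a macrophage marker, was near 0, with a median of 0.5 counts per library. At 10 nM 5 of the 16 leukocyte markers tested were past the threshold and higher and 0 lower, 31.2% beside 10.8% of all genes. The median log2 fold change was 0.99. With the libraries apart left out, 1 was higher and 0 lower, with a median of 0.13. Against 3 nM, 2 were higher at 10 nM, 12.5% beside 0.129% of all genes. The 14 smooth muscle markers summed to 357 to 1159 CPM in DMSO testes, 293 to 526 CPM at 3 nM and 374 to 1184 CPM at 10 nM. At 10 nM, 1 of them was past the threshold and higher and 4 were lower, 35.7% of the list. The median log2 fold change was -0.52, and it was -0.53 with 0 past the threshold without the libraries apart. At 3 nM 0 were past it, with a median of -0.71. The 11 intestine markers summed to 128, 156 and 23.1 CPM in 10 nM replicates 1, 5 and 6, against at most 12.8 CPM in DMSO testes. They were also high in a library not apart, 3 nM replicate 1, at 186 CPM. The 10 liver markers summed to 84.0, 223 and 553 CPM in 10 nM replicates 1, 5 and 6, against at most 150 CPM in DMSO testes, and reached 324 CPM in 3 nM replicate 5. In 10 nM against DMSO, 2 of 9 intestine markers tested (22.2%) were past the threshold and higher, and 0 of 10 liver markers. The part of these cell types in the members' levels was not tested.

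The 11 adipocyte markers, of which fabp4a alone averaged 109.5 CPM over the 18 libraries, summed to 177 to 379 CPM in DMSO testes, 76.2 to 117 CPM at 3 nM and 117 to 193 CPM at 10 nM. Of the 9 tested, 2 were past the threshold and lower at 3 nM, 22.2% beside 0.208% of all genes. At 10 nM 1 was higher and 2 were lower, 33.3% beside 10.8% of all genes. The median log2 fold change of the list was -0.60 at 3 nM and 0.11 at 10 nM. With the libraries apart left out, this was 1 lower at 3 nM, and 0 in either direction at 10 nM. Over all genes in that fit, 0.264% were past the threshold at 3 nM and 1.9% at 10 nM. The 11 Leydig cell markers summed to 614 to 1972 CPM in DMSO testes, 335 to 802 CPM at 3 nM and 448 to 920 CPM at 10 nM. The 2 highest DMSO sums were 1972 and 1210 CPM, in replicates 1 and 3, and the other 4 lay at 614 to 714 CPM, within the 3 nM range. At 3 nM 0 Leydig markers were past the threshold, with a median of -0.68. At 10 nM 2 were lower (18.2%, beside 10.8% of all genes), with a median of -0.47. None of these markers was at 0 in all libraries, and their part in the members' levels was not tested.

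Per 100 CPM of summed fibroblast markers, ITGBL1 had a lowest, median and highest level of 7.94, 9.38 and 12.1 CPM in DMSO testes, 5.44, 5.73 and 7.76 CPM at 3 nM, and 1.25, 3.05 and 4.98 CPM at 10 nM. On this scale the 3 groups did not overlap, whereas the 10 nM and 3 nM libraries overlapped in plain CPM. The divisor itself differed between groups, at 468 to 899 CPM in DMSO testes, 299 to 465 CPM at 3 nM and 417 to 1617 CPM at 10 nM. A separation on this scale can therefore come from the divisor, and the share of all genes that separate on it was not computed. The gene tcf23 had 1.68, 2.15 and 3.32 CPM in DMSO testes, 0.432, 0.611 and 1.07 CPM at 3 nM, and 0.0535, 0.384 and 1.11 CPM at 10 nM, again with every exposed library below DMSO. FN1 ENSDARG00000019815 had 1.97, 2.42 and 3.32 CPM in DMSO testes, 2.39, 3.05 and 4.69 CPM at 3 nM, and 4.12, 6.27 and 7.76 CPM at 10 nM, so that 10 nM libraries did not overlap DMSO libraries. FN1 ENSDARG00000006526 had 37.2, 45.7 and 61.0 CPM in DMSO testes, 20.6, 23.3 and 47.5 CPM at 3 nM, and 17.8, 29.5 and 58.5 CPM at 10 nM, and both exposed groups then overlapped DMSO. EMILIN2 had 0.851, 0.971 and 1.5 CPM in DMSO testes and 2.18, 2.86 and 8.09 CPM at 10 nM, without overlap. The gene ccdc80 had 0.360, 0.907 and 1.08 CPM in DMSO testes and 0.597, 1.55 and 2.41 CPM at 10 nM, which overlapped on this scale. HTRA3 ENSDARG00000010925 had 0.0824, 0.110 and 0.235 CPM in DMSO testes and 0.333, 0.481 and 2.19 CPM at 10 nM, without overlap. Both HTRA3 ENSDARG00000052895 and emilin2b overlapped between 10 nM and DMSO.

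The other genes of the matrix, its receptors and the signals bound to it were examined in 8 lists of 250 identifiers, of which 228 were tested. None of the members is in these lists. The lists were drawn up with earlier results of these data known, so their shares are a description. The symbols ITGB1, THBS1, THBS4, TIMP2, TIMP4, MMP14, VCL, SMAD6 and HAPLN1 are each shared by more than 1 identifier. For these the gene named below is the one with the smallest p at 10 nM, and the others are not described. All list genes named below were taken for the smallest p of their list at 10 nM. Their calls and any lack of overlap with DMSO rest on that choice, and nothing is read from them. Over all tested genes, 2.93% were higher and 3.2% lower at 10 nM without overlap. In 10 nM against DMSO, 27 list genes rose and 10 fell, 16.2% of the 228 tested, beside 10.8% of all genes. Their median log2 fold change was -0.07, against 0.06 over all genes. Without the libraries apart, 6 of 231 rose and 4 fell, beside 1.02% and 0.883% of all genes. The median was -0.02, against -0.01 over all genes. At 3 nM, 0 of 228 were past the threshold in edgeR, with a median of -0.19 against 0.02 over all genes. In that fit 42 of the 228 had an unadjusted p under 0.05, beside 3417 of all 24053 tested. DESeq2 called 7 list genes, and 311 genes in all.

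**Figure D4:**
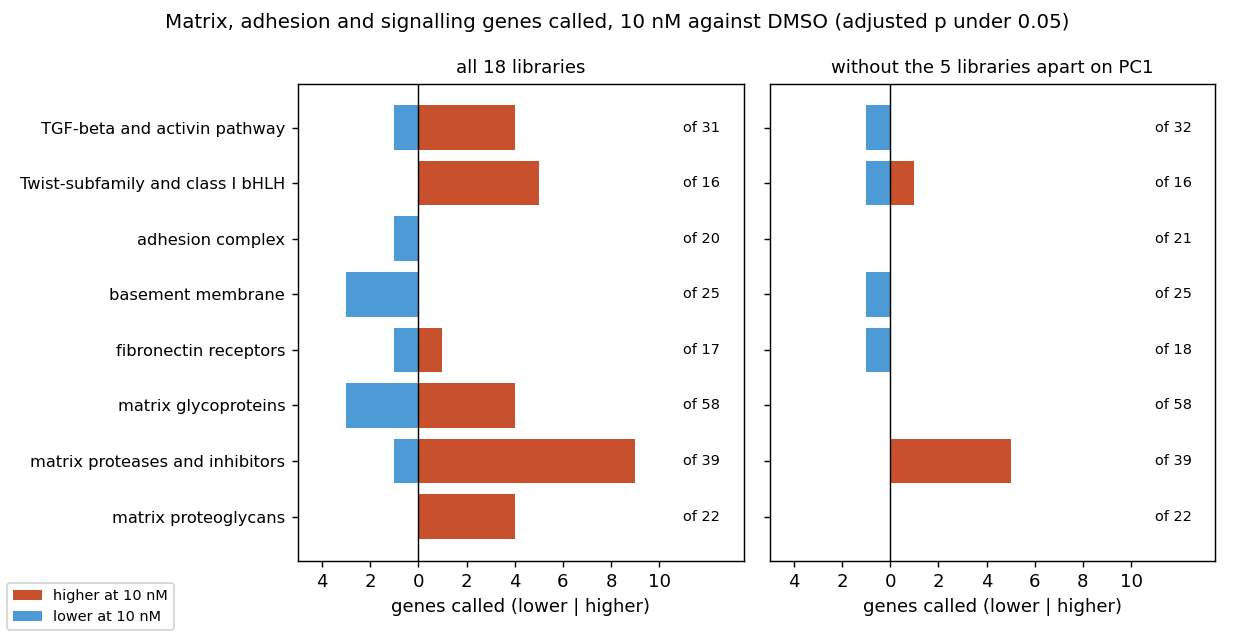
Number of genes of each of 8 lists with an adjusted p under 0.05 in 10 nM against DMSO, higher at 10 nM to the right of 0 and lower to the left, with the number tested beside each row. The left panel has all 18 libraries and the right panel leaves out the 5 apart. Matrix proteases and inhibitors have 9 higher and 1 lower on the left and 5 higher on the right. Over all tested genes, 7.4% were higher and 3.44% lower with all libraries, and 1.02% and 0.883% without those apart.

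The list of matrix proteases and inhibitors also held several identifiers with the symbol HTRA2, an HtrA relative found in mitochondria. Among its 39 genes tested, 9 rose and 1 fell at 10 nM, 25.6% beside 10.8% of all genes. The median log2 fold change was 0.07. The collagenase gene mmp13a had lowest, median and highest levels of 2.74, 15.8 and 351 CPM at 10 nM, against 0.828, 1.23 and 1.61 CPM in DMSO testes, without overlap. It had a log2 fold change of 6.15 ± 1.05 (adjusted p = 0.00336), or 1.82 when the libraries apart were left out. Without 10 nM replicate 1 alone it was 4.78. TIMP2 and TIMP4 encode tissue inhibitors of metalloproteinases. TIMP2 had 15.1, 36.4 and 86.0 CPM at 10 nM, against 8.74, 9.92 and 11.3 CPM in DMSO testes, a log2 fold change of 2.19 ± 0.33 (adjusted p = 0.00134). TIMP4 had 6.46, 16.3 and 83.1 CPM at 10 nM, against 0.418, 0.726 and 3.98 CPM in DMSO testes, a log2 fold change of 4.61 ± 0.72 (adjusted p = 0.00194). It was 3.98 without 10 nM replicate 5 and 5.44 without DMSO replicate 1. MMP14, a membrane-bound metalloproteinase, had 36.5, 45.9 and 66.6 CPM at 10 nM, against 14.6, 23.6 and 32.4 CPM in DMSO testes, a log2 fold change of 1.01 ± 0.18 (adjusted p = 0.0044). These 4 genes were named for the smallest p in this contrast. All 4 were higher in every 10 nM library than in any DMSO library, as were 2.93% of all tested genes. All 4 remained past the threshold without the libraries apart, beside 1.9% of all genes. In that fit the log2 fold changes were 1.34 for TIMP2, 2.81 for TIMP4 and 0.77 for MMP14.

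In 10 nM against 3 nM, 2 list genes were past the threshold, 0.877% of those tested beside 0.129% of all genes. They were TIMP2 (log2 fold change 2.1 ± 0.33, adjusted p = 0.0288) and mmp13a (5.46 ± 1.01, adjusted p = 0.0399). At 3 nM their lowest, median and highest levels were 8.19, 10.1 and 12.9 CPM for TIMP2 and 0.980, 1.97 and 3.46 CPM for mmp13a. TIMP2 was past the threshold in 11 of 18 fits without 1 library, with log2 fold changes of 1.82 to 2.27. It was lost without 3 nM replicate 1, 3, 4 or 5 or 10 nM replicate 1, 5 or 6. The call for mmp13a was past it in 3 fits, those without 10 nM replicate 2, 3 or 4, and its values ranged from 4.09, without 10 nM replicate 1, to 5.71. Without the 5 libraries apart neither was past it, at 1.26 for TIMP2 and 1.21 for mmp13a.

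Of 17 genes for fibronectin-binding integrins and other receptors tested, 1 rose and 1 fell at 10 nM, 11.8% beside 10.8% of all genes. The median log2 fold change was -0.37. ITGA5, the alpha chain of the classical fibronectin receptor, had 5.06, 9.16 and 16.5 CPM at 10 nM, against 4.64, 5.54 and 6.52 CPM in DMSO testes, a log2 fold change of 0.86 ± 0.26 (adjusted p = 0.0423) with overlapping groups. It was 0.09 and not past the threshold without the libraries apart. ITGB5, a beta chain that binds vitronectin, had 25.1, 27.2 and 33.1 CPM at 10 nM, against 31.9, 35.6 and 44.8 CPM in DMSO testes, a log2 fold change of -0.37 ± 0.11 (adjusted p = 0.0414), and -0.51 without the libraries apart, still past the threshold. Of the genes with the symbol ITGB1, the partner of ITGA5, ENSDARG00000022689 had the smallest p. Its log2 fold change was 0.74 ± 0.27 (adjusted p = 0.0743), and ITGA9 had -0.99 ± 0.32 (adjusted p = 0.051). Of 20 adhesion complex genes, which link integrins to actin, 0 rose and 1 fell, 5% of those tested. That gene was VCL, for vinculin, with a log2 fold change of -0.50 ± 0.13 (adjusted p = 0.0269), and -0.37 without the libraries apart, not past the threshold.

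Of 58 other matrix glycoprotein genes tested, 4 rose and 3 fell at 10 nM, 12.1% beside 10.8% of all genes. THBS1, for a thrombospondin, had 7.03, 13.6 and 58.5 CPM at 10 nM, against 4.32, 5.77 and 8.64 CPM in DMSO testes, a log2 fold change of 2.06 ± 0.44 (adjusted p = 0.0109) and 0.60 without the libraries apart. The microfibril gene mfap5, which is also among the fibroblast markers, had a log2 fold change of 2.13 ± 0.48 (adjusted p = 0.0148), and 0.56 without the libraries apart. THBS4 had 1.95, 2.63 and 3.1 CPM at 10 nM, against 4.25, 4.83 and 5.36 CPM in DMSO testes, without overlap and with a log2 fold change of -0.88 ± 0.21 (adjusted p = 0.0185). TGFBI, which encodes an integrin-binding matrix protein, had a log2 fold change of 0.79 ± 0.21 (adjusted p = 0.0285). None of these 4 was past the threshold without the libraries apart, where THBS4 had -0.95 and TGFBI 0.70.

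Of 25 basement membrane genes, 0 rose and 3 fell at 10 nM, 12% beside 10.8% of all genes. The median log2 fold change was -0.23. AGRN, for the heparan sulfate proteoglycan agrin, had 32.3, 48.2 and 57.5 CPM at 10 nM, against 58.4, 79.5 and 89.2 CPM in DMSO testes, without overlap. It had a log2 fold change of -0.67 ± 0.15 (adjusted p = 0.0156). When the libraries apart were left out it was -0.82, still past the threshold. The collagen gene col18a1a had -0.81 ± 0.23 (adjusted p = 0.0365) and the laminin chain gene LAMA1 had -1.22 ± 0.38 (adjusted p = 0.0481). Without the libraries apart these were -0.78 and -0.68, not past the threshold. At 3 nM the log2 fold change of AGRN was -0.66 ± 0.15 (adjusted p = 0.11).

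Of 22 proteoglycan genes, 4 rose and 0 fell at 10 nM, 18.2% beside 10.8% of all genes. The median log2 fold change was 0.46. Without the libraries apart 0 were past the threshold, with a median of 0.26. The 4 that rose were SPOCK3 (0.63 ± 0.17, adjusted p = 0.0325), epyc (1.24 ± 0.36, adjusted p = 0.0355), HAPLN1 (1.62 ± 0.47, adjusted p = 0.0362) and bcan (0.68 ± 0.21, adjusted p = 0.0492). SPOCK3 was higher in all 6 libraries at 10 nM, from 21.3 CPM, than in any DMSO library, up to 18.7 CPM. HAPLN1 was at a low level, 0.370 to 2.78 CPM at 10 nM and 0.213 to 0.639 CPM in DMSO testes, which overlapped.

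Of 31 genes of the TGF-beta and activin pathway tested, 4 rose and 1 fell at 10 nM, 16.1% beside 10.8% of all genes. The median log2 fold change was -0.32. The ligand genes tgfb5 and tgfb1a had log2 fold changes of 0.82 ± 0.23 (adjusted p = 0.0315) and 0.88 ± 0.25 (adjusted p = 0.0351). SMAD6 and SKI, which encode inhibitors of the pathway, had 0.76 ± 0.21 (adjusted p = 0.0341) and 0.60 ± 0.17 (adjusted p = 0.037). Without the libraries apart, none of the 4 was past the threshold, and the values were 0.64 for tgfb5, 0.46 for tgfb1a, 0.45 for SMAD6 and 0.26 for SKI. In that fit 0 genes of the list rose and 1 fell at 10 nM, of 32 tested, and 1 fell at 3 nM. Over all genes in that fit, 0.883% were lower at 10 nM and 0.0977% at 3 nM. No gene that fell is among those named.

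A list of Twist-subfamily and class I bHLH genes also held ID1, ID2, id2b, ID3 and ID4, which encode proteins that lack the basic region. Of its 16 genes tested beside tcf23, 5 rose, not all of them named here, and 0 fell at 10 nM. That is 31.2%, beside 10.8% of all genes, with a median log2 fold change of 0.53. Without the libraries apart, 1 rose and 1 fell, beside 1.02% and 0.883% of all genes. The median was then 0.09, and the gene that fell is not among those named. HAND2 rose by a log2 fold change of 2.12 ± 0.44 (adjusted p = 0.00943), SCX, a factor of tendon cells, by 2.14 ± 0.50 (adjusted p = 0.0158), TCF15 by 1.04 ± 0.25 (adjusted p = 0.0193) and twist1a by 1.53 ± 0.45 (adjusted p = 0.037). TCF15 had 3.94, 4.55 and 6.62 CPM at 10 nM, against 1.39, 2.30 and 3.54 CPM in DMSO testes, without overlap, and remained past the threshold without the libraries apart (1.0). HAND2, SCX and twist1a did not, at 1.70, 1.92 and 0.58. SCX and HAND2 were at low levels throughout, at most 1.57 and 3.21 CPM. For HAND2 the 10 nM libraries, from 0.708 CPM, overlapped the DMSO libraries, up to 0.792 CPM.

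Of the 26 named list genes past the threshold at 10 nM, 11 stayed past it in all 18 fits without 1 library. These were THBS1, mfap5, THBS4, AGRN, TIMP2, TIMP4, mmp13a, MMP14, HAND2, SCX and TCF15. The other 15 lost their call in at least 1 fit, all 15 of them without 10 nM replicate 5, 14 without DMSO replicate 2, and 13 without each of DMSO replicate 4 and 10 nM replicates 1 and 6. Of the 15, 12 lost it without DMSO replicate 1, 10 without each of DMSO replicates 5 and 6, and 8 without DMSO replicate 3. The other libraries at 10 nM and 3 nM each ended 4 calls or fewer. The widest range of log2 fold changes among the 15 was that of twist1a, from 0.95 to 1.66. Leaving out 1 library does not take out the libraries apart together. Without all of those, 7 of the 26 were past the threshold, and THBS1, mfap5, THBS4, HAND2 and SCX were not. With the replicate number as a block, 11 of the 26 were past it.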

How the data were processed

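RNA was sequenced from 18 testis libraries, with a stranded total RNA kit and 50-base single-end reads, per the labels' protocols. The authors deposited raw counts, whole numbers, 1 per gene identifier and library. The submitters' processing notes name the tools FastQC, STAR, HTSeq and edgeR, without versions, and the genome build GRCz10. The sources used here do not give the annotation release, the strand setting or the treatment of reads matching several genes. Reads from a gene and an overlapping antisense gene may therefore not be told apart.

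The 18 libraries went into one fit with edgeR 4.0.16 in R 4.3.3: low counts were removed with filterByExpr, libraries were scaled by TMM, and 24053 genes were tested by the robust quasi-likelihood F-test. Groups were compared without a block, and p-values were adjusted by Benjamini-Hochberg over all tested genes, with a threshold of 0.05. The SE of a log2 fold change is its size divided by the square root of F. The scripts were tested on simulated data. Log2 CPM used a prior count of 2. No counted row lacked a gene identifier, and 27000 of 35117 identifiers matched a symbol. No libraries of a group were alike within sampling noise (lowest chi-square per degree of freedom 18.5).

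The members and lists were chosen with earlier results of these data known. Named list genes were up to 4 per list with the smallest p at 10 nM, and any list gene past the threshold at 3 nM. For each member, the 3 genes with the most similar pattern were named. Alternatives were DESeq2 1.42.0 and its size factors, other low-count filters, fits of only the compared groups, a replicate block, and leaving out the libraries apart or each library in turn. Bisulfite data of 16 further testis samples were not analysed here, since their deposited regions carry no gene names.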

Additional observations from a re-analysis of the deposited data

Results flagged for a closer look

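In 3 of 27 groups examined (9 genes in 3 groups of 6 libraries), 1 library was far from the others of its group. Chance flags about 1 in 20 groups. FN1 ENSDARG00000019815 had 21.8 CPM in 3 nM replicate 2, where the next highest of the group was 12.6 CPM and the lowest 8.51 CPM. The gene ccdc80 had 3.23 CPM in DMSO replicate 1, where the next lowest was 4.70 CPM and the highest 5.5 CPM. HTRA3 ENSDARG00000052895 had 45.1 CPM in DMSO replicate 2, where the next highest was 31.1 CPM and the lowest 27.5 CPM. None of these 3 libraries is among the 5 that stood apart. Of the 15 list genes that lost their call at 10 nM in at least 1 fit, 14 lost it without DMSO replicate 2. Without DMSO replicate 1 it was 12, and without 3 nM replicate 2 it was 2. Leaving out DMSO replicate 2 also lowered the calls over all genes from 2609 to 826. The part of the outlying values above in these losses was not tested.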

How the results depend on the processing

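Over all alternatives, 668 of 675 log2 fold changes of the 9 genes moved by less than 1 SD between replicates and 7 moved more, with no reversal of a called value. All 7 came from leaving out the libraries apart: FN1 ENSDARG00000019815 to 0.41 at 10 nM against DMSO and 0.52 against 3 nM, HTRA3 ENSDARG00000010925 to 1.14 and 1.64, EMILIN2 to 0.70 and 1.07, and HTRA3 ENSDARG00000052895 to -0.40 at 10 nM against DMSO. The cause was not tested. Without those libraries, 468 genes of all tested and 10 list genes were called for 10 nM against DMSO, 1 list gene for 3 nM against DMSO, and 0 and 0 for 10 nM against 3 nM.

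DESeq2 called 4625 genes and 57 list genes for 10 nM against DMSO, 311 and 7 for 3 nM against DMSO, and 695 and 21 for 10 nM against 3 nM, where edgeR called 2609 and 37, 50 and 0, and 31 and 2. Fits of only the compared groups called 1699 genes for 10 nM against DMSO, 1 list gene for 3 nM against DMSO, and 0 and 0 for 10 nM against 3 nM. For 10 nM against 3 nM, no low-count filter left 1 list gene called, and a mean of at least 1 CPM gave 86 genes and 5 list genes. Leaving out 1 library gave 826 to 3855 genes and 15 to 49 list genes for 10 nM against DMSO, 25 to 55 and 0 to 1 for 3 nM against DMSO, and 0 to 355 and 0 to 13 for 10 nM against 3 nM.

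With the replicate number as a block, 684 genes and 14 list genes were called for 10 nM against DMSO, 26 genes for 3 nM against DMSO, and 0 and 0 for 10 nM against 3 nM. Whether the numbers pair the samples is not known. Of 18 pairs with the same number, 6 correlated above 0.1, with a range of -0.486 to 0.338. In 4 cases a library correlated best with its own number. These correlations cannot settle it, since the split into libraries apart and others enters them as well. Where a count is 0, 3417 genes (3 nM against DMSO) and 2830 genes (10 nM against 3 nM) had an unadjusted p under 0.05 in the edgeR fit of all libraries. HTRA3 ENSDARG00000010925 rests on 11 to 32 counts per library outside the 10 nM group, which limits its precision.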
